A study of Mus musculus with 50 samples.

Results

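The variants described here lie in 3' untranslated regions (3' UTRs), the part of a messenger RNA after the stop codon. They are the rows of the deposited variant table with a single alternate allele whose combined annotation is the 3' UTR term. They number 898 of the 25624 variants with a single alternate allele, or 3.50%. Exomes were captured from DNA of IL6Myc mouse tumours, taken from the mesenteric lymph node and labelled as malignant plasma cells. Normal Balb/c kidney, labelled WT, was also captured. The labels list 45 tumours and 5 kidneys. The table used here has columns for 44 tumours, and tumours are numbered in the order of their accessions, and both the kidneys and tumour 4 were not analysed here. The constructs behind the IL6Myc name, the age of the mice and the strain of the tumour-bearing mice are not given in the labels. All tumours carry the same genotype label, so no treatment or genotype was compared, and inherited and acquired variants were not separated by a matched normal tissue. The labelled cell type could not be checked, because DNA carries no expression markers.

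A 3' UTR is not translated. It holds binding sites for microRNAs and for RNA-binding proteins that set how long a messenger RNA lasts, where it is located and how much protein is made from it. AU-rich elements in the 3' UTRs of cytokine and growth-control genes are a known example. Single-base changes (SNVs) and insertions or deletions (indels) there leave the protein sequence as it is. Exon capture also reaches only the stretch of a 3' UTR that its probes and flanking reads cover.

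Some deposited alleles are shown here as they stand in the table on the plus strand of mm10. They come from 1 position each in Shisa4, Smarce1 and Naa50, and from 5 further indels described below. Positions with more than 1 alternate allele on separate rows numbered 17, and the others are not shown. The first base, in lower case, is the anchor base that stays, and the capitals are the inserted or deleted bases. At chr1:135371901, 48 bases past the stop codon of Shisa4, 6 insertion alleles were called:
Shisa4 insertion of 2: aAC
Shisa4 insertion of 3: aAAC
Shisa4 insertion of 4: aAAAC
Shisa4 insertion of 5: aAAAAC
Shisa4 insertion of 6: aAAAAAC
Shisa4 insertion of 8: aAAAAAAAC
At chr11:99210014, 54 bases past the stop codon of Smarce1, the 4 alleles had the same form with a longer run of A:
Smarce1 insertion of 9: aAAAAAAAAC
Smarce1 insertion of 10: aAAAAAAAAAC
Smarce1 insertion of 11: aAAAAAAAAAAC
Smarce1 insertion of 12: aAAAAAAAAAAAC
At chr16:44161332, in Naa50, a GGAT unit was gained or lost once or repeatedly, and the same letters were the inserted and the deleted bases:
Naa50 gain or loss of 4: gGGAT
Naa50 gain or loss of 8: gGGATGGAT
The other alleles shown are a widely shared long deletion and insertion, the deletion in the chemokine receptor gene Ccr3, and repeat-like insertions at a read share of 100% in 1 tumour each. The deletions span chr1:135441650-135441672 in Nav1 and chr9:124029923-124029928 in Ccr3. The insertions lie at chr1:82751811 in Mff, chr5:119883516 in Tbx5 and chr4:138456971 in Camk2n1.
Nav1 deletion of 22: tCTGCCCTCCAGGGTGACAGTGA
Mff insertion of 14: gGCTTTCTAGTCCAA
Ccr3 deletion of 5: aACATG
Tbx5 insertion of 8: gGAGAGAGA
Camk2n1 insertion of 24: aGAGGAGGAGGAGGATGAGGAGGTG

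The 898 variants named 669 genes. Of these symbols, 664 matched the RefSeq gene table of GRCm38.p6, 627 directly and 37 through a synonym. A position past the stop codon was written for 844 variants. The other 54 had the 3' UTR annotation, but their written change was intronic in 30, on a non-coding transcript in 22 and of another form in 2. In 53 rows more than 1 gene was named, and such a variant was counted for each gene. Over the 844 positions the median distance from the stop codon was 111 bases, with quartiles of 53 and 222, and the farthest lay 7223 bases away. Within 100 bases lay 380 of them (45.0%), and 87 (10.3%) lay beyond 1000. SNVs had a median of 107.5 bases and indels 121.5. Private variants, meaning those called in 1 tumour, and shared variants, called in 2 or more, both had a median of 111.

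**Figure D1:**
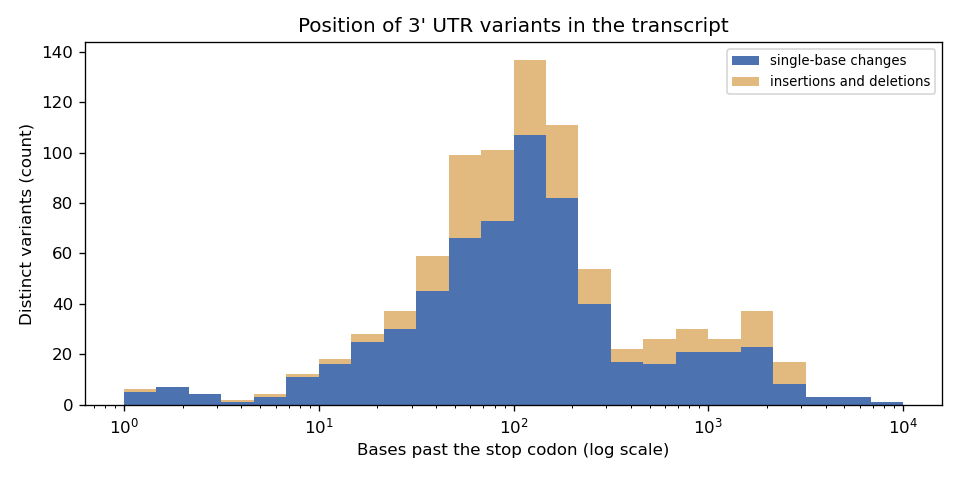
Number of distinct 3' UTR variants (vertical axis) by distance past the stop codon in bases (horizontal axis, log scale), with single-base changes and indels stacked, for the 844 variants with a written position. The tallest bars lie around the median of 111 bases, and 87 variants lie beyond 1000.

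Per tumour, 133.8 ± 58.4 variants in 3' UTRs were called (mean ± SD, n = 44). The lowest number was 59 in tumour 5, the median 123.5 and the highest 233 in tumour 8. They made up 3.79% ± 0.452 of a tumour's calls, from 2.35% in tumour 5 to 4.50% in tumour 29. Most calls in a tumour were of shared variants, 125.2 ± 55.4, and 8.61 ± 8.93 were private (mean ± SD, n = 44). Tumour 32 had no private 3' UTR variant, tumour 2 had 56, and the median was 6. In tumour 2, 29 of the private ones lay on chromosome 2 and 11 on chromosome 11. In tumour 1, 13 lay on chromosome 11, and in tumour 5, 12 lay on chromosome 1. The tumours with titles below 1601 had 170.3 ± 56.8 variants (range 59 to 233) and those with higher titles 97.4 ± 31.3 (range 60 to 161), with 22 tumours in each. The labels give no meaning to the title numbers, and this difference was not tested.

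**Figure D2:**
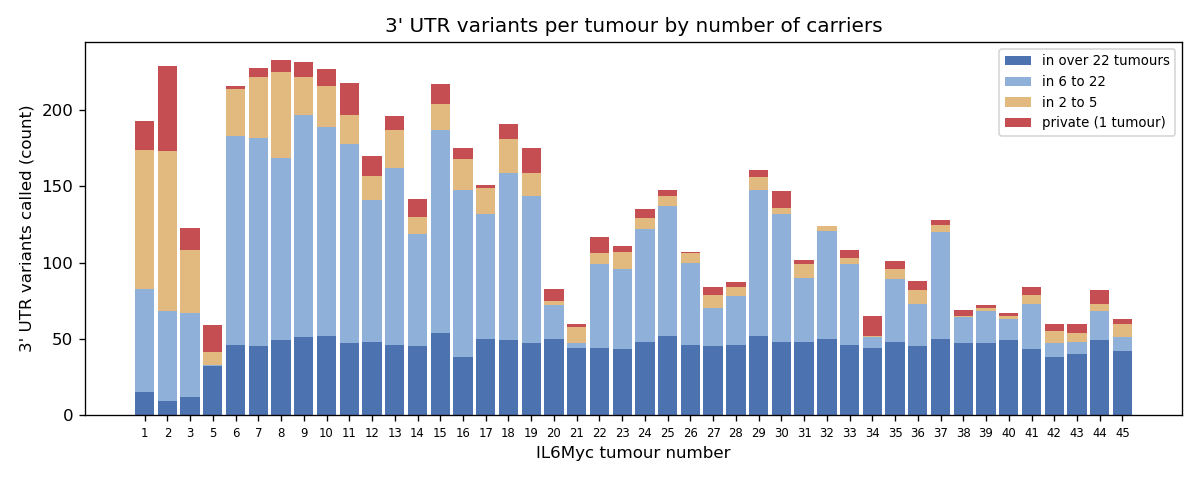
Count of 3' UTR variants called in each of the 44 tumours (vertical axis, count; horizontal axis, tumour number), stacked by how many tumours carry the variant. Totals run from 59 in tumour 5 to 233 in tumour 8, and tumours 1, 2 and 3 have the fewest variants carried by over 22 tumours.

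Of the distinct variants, 379 (42.2%) were private, 242 were called in 2 to 5 tumours, 222 in 6 to 22 and 55 in over 22. The pooled private share was 47.5% among intronic, 56.3% among 5' UTR, 33.7% among synonymous and 60.7% among missense variants. Within tumours, private calls made up 6.74% ± 5.90 of 3' UTR calls and 8.44% ± 5.89 of all other calls (mean ± SD, n = 44). The mean within-tumour difference was -1.70 percentage points (standard error 0.416, 95% interval -2.54 to -0.862). It was negative in 34 tumours and positive in 10 (two-sided sign-flip permutation test, p = 0.00027, adjusted p = 0.00148 over the 11 within-tumour differences tested). With a minimum read share of 20% it was -0.856 points and still passed (adjusted p = 0.00737). In the 22 tumours with titles from 1601 up alone, the difference was -1.62 points and no longer passed (adjusted p = 0.0938). In the 22 with lower titles it was -1.79 points (adjusted p = 0.0133).

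By chromosome, chromosome 2 held 157 of the variants (17.5%), chromosome 11 held 137 (15.3%), chromosome 1 held 98 (10.9%) and chromosome 3 held 92 (10.2%). The same chromosomes held 14.8%, 11.3%, 11.95% and 11.2% of all variants, and, of all protein-coding genes in RefSeq, 8.14%, 7.35%, 5.499% and 4.49%. On chromosome 1, 35 of the 98 were in over 22 tumours, whereas chromosome 2 and chromosome 11 had 1 each. On chromosome 11 the median number of carriers was 2.

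Shared variants tended to come in groups with the same carriers. Of the 519 shared variants, 270 (52.0%) had another 3' UTR variant on their chromosome that was called in exactly the same tumours. The same share was not computed for other annotations, so it is not shown to be particular to 3' UTR variants. The group with the most members was 20 variants naming 16 gene entries on chromosome 11 between 83442460 and 96769018, all in tumours 1 and 2. It included the homeobox genes Hoxb2, Hoxb6 and Hoxb9, the integrin gene Itga3 and Spop, a ubiquitin ligase adaptor. A further 17 variants between 96808368 and 100741587 were in tumours 1, 2 and 8, and 15 between 82981148 and 90036036 were in tumours 1, 2 and 3. The last of these held the chemokine genes Ccl3 and Ccl5. On chromosome 1, 14 variants in 12 gene entries were in all 41 tumours other than tumours 1, 2 and 3. Groups of variants with the same carriers share a stretch of chromosome, so their members are not independent observations.

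More than 1 variant was found in 174 genes: 121 genes had 2, 32 had 3, 10 had 4 and 11 had 5 or more. The other 495 genes had 1 variant. Among the 108 genes with several shared variants, all of them were in the same tumours in 47. A pair with no tumour in common was found in 11. Sp6, a zinc finger transcription factor gene, had the most variants. Its 12 variants, 8 SNVs and 4 indels, lay from 36 to 2056 bases past the stop codon on chromosome 11. The 10 shared ones were carried only within tumours 1, 2 and 8, and their median read shares lay between 28.6% and 54.5%. The lowest, 28.6%, belonged to a deletion of 33 bases. Both private Sp6 variants were in other tumours, 11 and 14, at 20.4% and 28.8%.

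The chemokine receptor genes Ccr2 and Ccr3 on chromosome 9 were also among the genes with the most variants. Their receptors guide monocytes and eosinophils to sites of inflammation. Ccr3 had 7 variants, from 2 to 1614 bases past the stop codon, and each was called in the same 22 tumours. Their median read shares ran from 49.8% to 52.7%. Ccr2 had 10, with 1 in 22 tumours, 1 in 21, 2 in 19, 2 in 11, 1 in 6, 1 in 2 and 2 in 1 tumour. The neighbouring gene Fyco1, whose product links autophagosomes to microtubule transport, had a 2-base insertion of its own in the 22 tumours. A further 2 variants in the same number of tumours were in rows that name Fyco1 together with Cxcr6, another chemokine receptor gene. The Ccr2 calls were more scattered than those of Ccr3, as the heat map of read shares shows, and a missing call can be the reference base or too few reads.

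Over the 12 variants of Fyco1, Ccr3 and Ccr2 with at least 20 carriers, 22 tumours had nearly the whole set and 22 had none. All 12 were called in 21 of them and 11 in tumour 8. The per-tumour median read share over these variants had a lowest value of 45.9% in tumour 24, a median of 49.7% and a highest of 61.1% in tumour 10. It was at or above 55% in 5 tumours. Tumours 10, 11 and 9 reached 61.1%, 59.7% and 59.6%, tumour 15 had 58.9% and tumour 35 had 55.9%. The other 17 lay between 45.9% and 51.7%. This set was delimited after the values were seen.

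**Figure D3:**
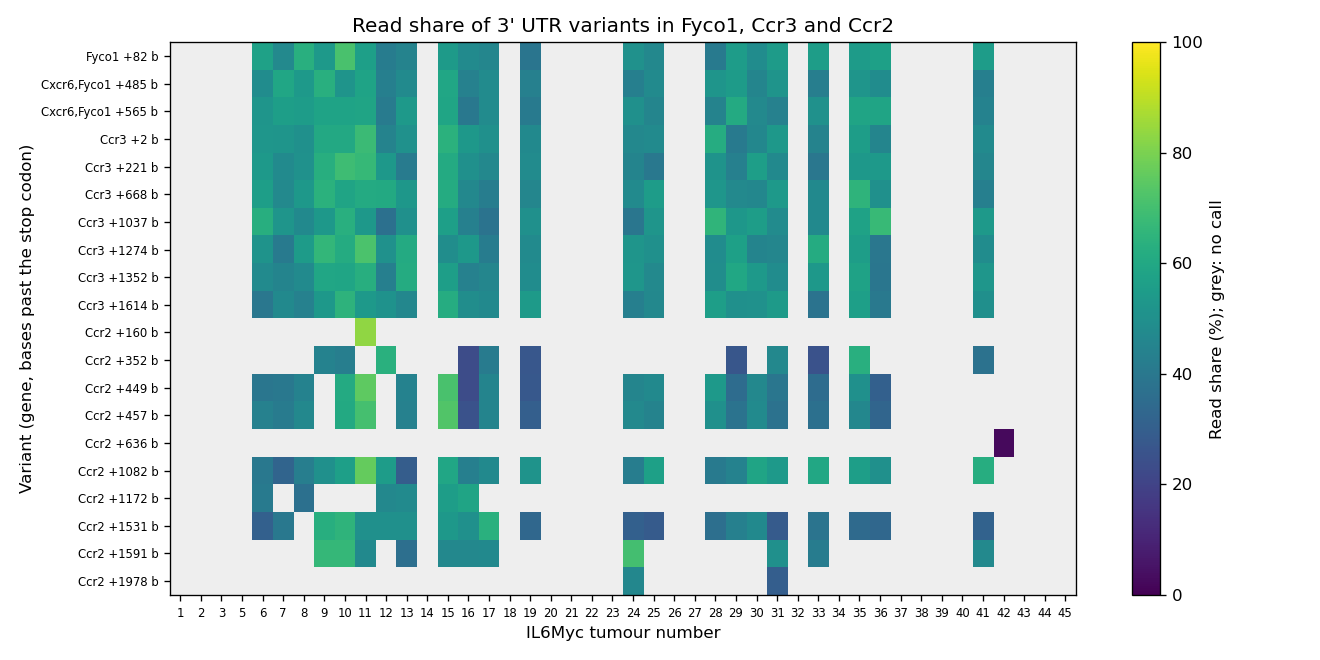
Read share in percent (colour; grey where no call) of each 3' UTR variant in Fyco1 (2 of them in rows shared with Cxcr6), Ccr3 and Ccr2 (rows, labelled with bases past the stop codon) in the 44 tumours (columns). The same 22 tumours carry the 7 Ccr3 variants, and Ccr2 also holds variants seen in fewer tumours.

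Other genes with many variants followed the same forms. Sox13, an SRY-related transcription factor gene on chromosome 1, had 8 variants, of which 2 were in 37 tumours, 1 in 36, 1 in 31 and 1 in 21. Its private variants were both in tumour 8. Blcap and Nnat share 5 variants on chromosome 2, because both genes are named in each row. Of these, 4 were in the same number of tumours, 15, and 1 in 14. Dcun1d1, a gene of the neddylation pathway, had 4 variants in the same 11 tumours. Prr15l had 4 variants in the same 3 tumours. Mob3b had 6 variants in 1 to 7 tumours, the doublecortin-like kinase gene Dclk1 had 5 in 1 to 12, Reg4 had 4 in 2 to 19, Sp110 had 4 in 3 to 15 and Acad9, a mitochondrial gene, had 4 in 1 to 9. The protocadherin entries Pcdha4-g and Pcdhb7 share 4 variants in 4 or 5 tumours each. Whether reads were split between related genes of this family was not tested. The 4 variants of the potassium channel gene Kcnj6 all had an intronic written change. Hjurp, the chaperone of the centromeric histone, had 5 variants at read shares of 6.82% to 36.4%, 3 of them in rows shared with Mroh2a.

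Among shared variants, adjacent SNVs with the same carriers occurred at 4 places, in Stat3, Sp110, 9830001H06Rik and the row shared by Blcap and Nnat. At each place both SNVs had the same read share in every carrier.

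Several genes with private variants in different tumours had length changes at 1 position. At 17 positions the table held more than 1 alternate allele on separate rows. These were 45 variants, all indels, and 28 of them were private. At 6 of the positions there were 3 or more alleles. Private variants in 3 tumours were found in 3 genes, Shisa4, Smarce1 and Dgkg, and in 2 tumours in a further 15. Smarce1 encodes a subunit of the SWI/SNF chromatin remodelling complex. Its 11-base insertion was in tumours 16, 27 and 43, and its 9-, 10- and 12-base alleles were in tumours 11, 41 and 14. All 6 calls had read shares between 17.1% and 30.2%. In Dgkg, a diacylglycerol kinase gene, deletions of 2, 4 and 6 bases at 1 position were in tumours 11, 18 and 22, at 40%, 12.5% and 31.25%. At the Shisa4 position, 32 tumours carried at least 1 of the 6 alleles and 12 carried more than 1. The 5-base insertion was in 24 tumours at a median of 31.01% (range 7.69 to 63.6%) and the 4-base insertion in 16 at 19.6%. At the Naa50 position, in an N-terminal acetyltransferase gene, the gain of 4 bases was in 29 tumours at a median of 50%. The gain of 8 was in tumour 20 at 68.75%, and the losses of 4 and 8 were both in tumour 2, at 39.3% and 7.14%.

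Among the other genes with private variants in 2 tumours were Ccr2, Cgn, Cog7, Dapl1, Fbxl14, Hjurp and Mob3b. The private calls were at 1 position in Cgn (46.15% in tumour 12 and 27.3% in tumour 2) and in Dapl1 (80% in tumour 6 and 33.3% in tumour 24), as deletions of 1 and 3 bases in both genes. In Cog7, a Golgi complex gene, C>G changes lay 77 and 89 bases past the stop codon, at 13.6% in tumour 40 and 27.3% in tumour 21. In the row shared by Fbxl14 and Wnt5b, a T>G change was at 8.11% in tumour 19 and an 11-base insertion at 13.5% in tumour 34. In Ccr2 the private variants were a C>A change at 83.3% in tumour 11 and a T>C change at 2.52% in tumour 42.

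SNVs made up 666 of the variants and indels 232, or 25.8% (exact Clopper-Pearson 95% interval 23 to 28.8%). The interval covers counting error only and takes variants as independent, which those with the same carriers are not. The indel share was 26.01% among intronic and 13.99% among 5' UTR variants. Of the indels, 129 were deletions and 103 insertions. A change of 1 base accounted for 94 of them, of 2 bases for 44, of 3 to 9 for 71 and of 10 or more for 23. The longest insertion had 25 bases and the longest deletion 77. Among the 1-base changes, 64 were of A or T and 30 of C or G, and 58 were deletions. A duplication was the written form of 64 indels.

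Per tumour, indels were 24.7% ± 3.44 of 3' UTR calls (mean ± SD, n = 44). The lowest share was 18.5% in tumour 32, the median 24.3% and the highest 33.3% in tumour 45. Among private calls the indel share was 28.6% ± 15.6 in 3' UTRs and 32.2% ± 12.1 in introns of the same tumours (mean ± SD, n = 37 tumours with at least 3 private variants of both kinds). The difference of -3.60 points (standard error 2.89, 95% interval -9.46 to 2.26) did not pass (sign-flip permutation test, adjusted p = 0.614). In tumours with titles from 1601 up it was -10.4 points (standard error 4.20, 18 tumours, adjusted p = 0.0938), and in those with lower titles 2.82 points (19 tumours, adjusted p = 0.680). Against private 5' UTR variants, the 3' UTR indel share was higher by 15.1 points (standard error 4.53, 21 tumours, adjusted p = 0.0142).

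The 10 indels carried by the most tumours had median read shares from 40% to 55.2%. The 1-base insertion 58 bases past the stop codon of the epsilon-tubulin gene Tube1 was in all 44 tumours. Its read share had a lowest value of 35.7%, a median of 55.2% and a highest of 71.4%. A 4-base deletion in Fam178b, with an intronic written change, was in 43 tumours at a median of 47.2%. On chromosome 1, the 22-base deletion of Nav1, a 1-base deletion in the microtubule-binding gene Camsap2 and a 2-base deletion in Ube2t, a ubiquitin-conjugating enzyme gene of the Fanconi pathway, were each in 41. Their medians were 44%, 48.7% and 50%. A 1-base deletion in the chemokine gene Ccl9 and a 1-base insertion in Cyp26a1, whose product breaks down retinoic acid, were in 38 tumours at 51% and 50%. The 2-base deletion of Sox13 and a 3-base deletion in Tmem81 were in 36, at 50% and 40%. The 14-base insertion in the mitochondrial fission factor gene Mff was in 35 tumours, with a median of 40.9% and the wide range of 10 to 71.4%. The only other variant in all 44 tumours was a C>T change 44 bases past the stop codon of Bloc1s2, a gene of lysosome-related organelle biogenesis, at chromosome 19 position 44139638. Its read share was lowest at 34.6%, had a median of 46.1% and was highest at 57.1%.

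Substitutions are named from the pyrimidine of the base pair, in 6 classes. Per tumour, transitions (C>T and T>C) were 74.4% ± 2.86 of 3' UTR SNVs (mean ± SD, n = 44). C>T alone made up 41.7% ± 4.76 and T>C 32.7% ± 4.35. T>A made up 8.45% ± 2.11, C>A 7.91% ± 2.07, T>G 5.10% ± 2.54 and C>G 4.09% ± 1.61. Over distinct variants, transitions were 80% of the 40 SNVs in over 22 tumours, 74.6% of those in 6 to 22, 68.6% of those in 2 to 5 and 54.5% of the 268 private ones. T>G was 2.5%, 4.62%, 9.73% and 17.2% in the same order, and C>A was 5%, 8.67%, 8.11% and 16.04%. These shares are pooled over variants and were not tested.

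The classes also differed in read share among private variants, which was not tested. The median was 15.4% over 43 private C>A and 16.02% over 46 private T>G variants, against 36.9% over 68 private T>C and 28.3% over 78 private C>T. This order held in the tumours with titles below 1601, where the medians were 14.3% for C>A, 16.02% for T>G, 44.3% for T>C and 39.5% for C>T. In those with titles from 1601 up it did not hold: C>A had 20.9%, T>G 16.8%, T>C 16.02% and C>T 10.8%. These medians pool variants over tumours, so class and tumour were not separated. Among titles below 1601, the median over all private 3' UTR SNVs was 47.4%, 44.9% and 39.8% in tumours 1, 2 and 5. It was 46.7% in tumour 8 and between 7.255% and 16.7% in tumours 12 to 16. The shared variants of all 6 classes had medians between 47.1% and 50.2%. Of the private C>A variants, 37 were in tumours with titles below 1601, where they were 19.1% of 194 private SNVs, and 6 in tumours with higher titles, 8.11% of 74. The lower-titled tumours with at least 3 private SNVs in 3' UTRs and in introns were not alike. In tumours 7 to 16, C>A ran from 14.3% to 40% of private 3' UTR SNVs and from 25.5% to 45.2% of private intronic ones. In tumours 1, 2, 3 and 5 the ranges were 6.67% to 30% and 10.1% to 14.1%. In tumours 18, 19, 20, 22 and 23 they were 0 to 25% and 6.49% to 22.9%. These ranges were not tested.

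Set against private intronic SNVs of the same tumours, no substitution share passed. The transition share was 54.1% ± 22.8 in 3' UTRs and 51.6% ± 11.3 in introns (mean ± SD, n = 33), a difference of 2.49 points (standard error 3.52, 95% interval -4.68 to 9.66, sign-flip permutation test, adjusted p = 0.703). Of the 6 classes, C>A had the smallest p. It made up 14.8% ± 14.6 in 3' UTRs and 18.7% ± 12.3 in introns, lower in 25 of 33 tumours, a difference of -3.93 points (standard error 2.07, 95% interval -8.16 to 0.288, permutation test, adjusted p = 0.250). The intervals of the other 5 classes also spanned 0 and reached at most 9.90 points, that of C>T. With so few private variants per tumour the intervals are wide, and differences inside them are not excluded.

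**Figure D4:**
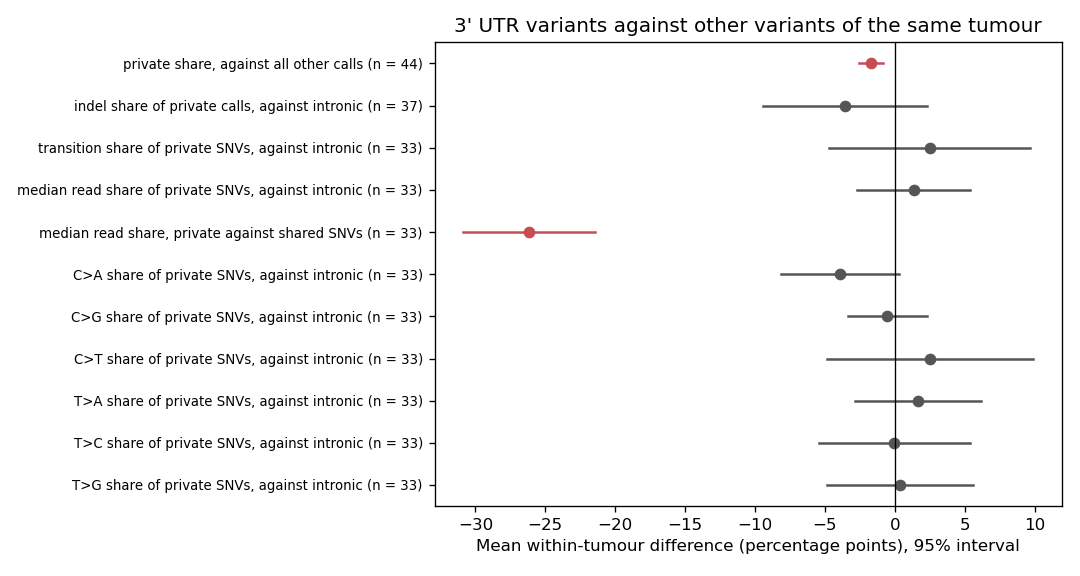
Mean within-tumour difference in percentage points between 3' UTR variants and the named comparison set (points), with 95% intervals from the standard error over tumours (lines) and the number of tumours in brackets; red marks an adjusted p below 0.05. The private share (-1.70) and the read share of private against shared SNVs (-26.2) lie below 0, and the other 9 intervals span 0.

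The read share is the percent of a site's reads that show the alternate allele. Shared 3' UTR SNVs had a median of 48.2% ± 2.15 per tumour (mean ± SD over 44 tumours), with a lowest value of 42.6% in tumour 3 and a highest of 56.8% in tumour 35. Private SNVs were lower. In the 33 tumours with at least 3 of them, their median was 22.03% ± 13.03 against 48.2% ± 2.25 for shared ones. The difference of -26.2 points (standard error 2.32, 95% interval -30.9 to -21.4) was negative in 32 of 33 tumours (sign-flip permutation test, p = 1e-05, the smallest the resamples can give, adjusted p = 0.00011). Its size varied between tumours. Private and shared medians were close in tumours 1 (47.4% and 48.4%), 2 (44.9% and 47.3%), 8 (46.7% and 48.15%) and 19 (47.1% and 46.5%). They were far apart in others, such as tumour 45 (7.14% and 49.1%). When calls below a read share of 20% were left out, it was -5.27 points in 16 tumours and no longer passed (adjusted p = 0.184). The shared variants recur between tumours, so the spread of their medians understates their error.

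Of the 268 private SNVs, 132 (49.3%) were below 20%, 70 (26.1%) between 40 and 60%, and 4 at 90% or above. The median over private indels was 44.4% (quartiles 27.3 and 57.4%) and over private SNVs 20% (quartiles 11.1 and 43.2%). Of the 111 private indels, 21 (18.9%) were below 20%. In introns the same medians were 48.9% and 25%. Indels and SNVs were not tested against each other. Of the 519 shared variants, 402 (77.5%) had a median between 40 and 60%, 35 were below 20% and 6 at 90% or above.

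**Figure D5:**
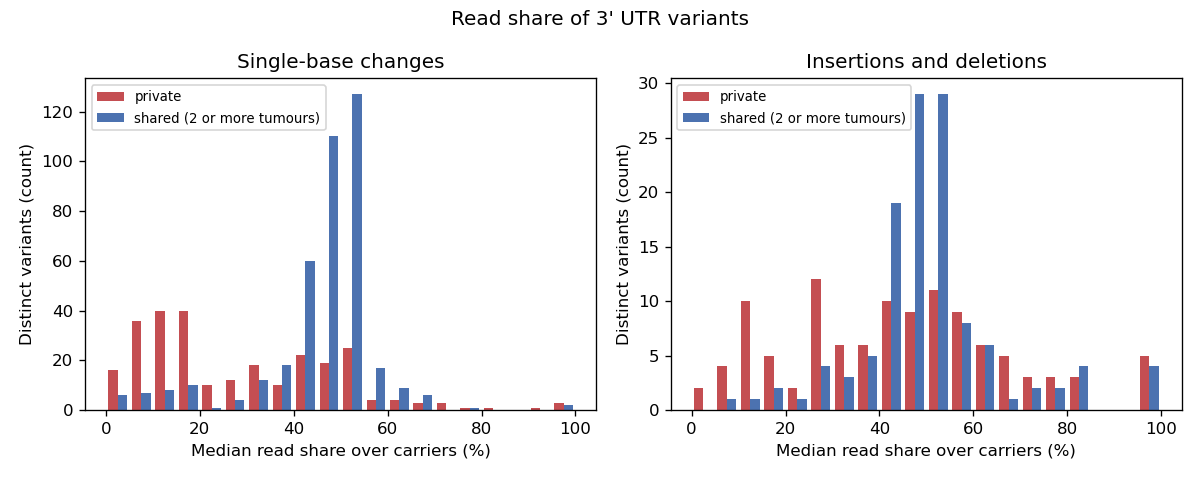
Number of distinct 3' UTR variants (vertical axis) by median read share over their carriers in percent (horizontal axis, bins of 5 points), for single-base changes (left) and indels (right), private in red and shared in blue. Of 268 private single-base changes, 132 lie below 20%, whereas 402 of the 519 shared variants lie between 40 and 60%.

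Compared with private SNVs elsewhere in the same tumours, those in 3' UTRs had a median read share of 22.03% ± 13.03 against 20.7% ± 9.19 in introns (n = 33). The difference of 1.33 points (standard error 1.99, 95% interval -2.73 to 5.38) did not pass (permutation test, adjusted p = 0.703). Against missense and synonymous variants together, private 3' UTR SNVs were higher by 7.96 points (standard error 1.72, 33 tumours, permutation test, adjusted p = 5e-05). The coding classes lay on either side of the 3' UTR variants. Pooled over distinct private SNVs, the median was 10.7% for missense, 20% for 3' UTR and 30.7% for synonymous variants. Missense and synonymous variants were not tested apart.

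Private variants at the highest read shares were in genes of varied function. At 100% were insertions in Camk2n1, Tbx5, Vax2 and Trappc9, a 1-base deletion in Paip1, a gene of the poly(A)-binding complex, and SNVs in Ramp1, the stem cell factor gene Sall4 and Vprbp. A C>T change in the tachykinin gene Tac4 was at 90.9%, and the C>A change in Ccr2 at 83.3%. Tbx5 and Vax2 encode developmental transcription factors. The Trappc9 insertion had an intronic written change. Each percent rests on an unknown number of reads. Among the shared variants at 100%, chosen after their values were seen, a T>A change in Serpina1d, an alpha-1-antitrypsin gene, was in 11 tumours, and a T>G change in Bhlha15, a transcription factor gene of secretory cells including plasma cells, was in 4. Serpina1d has near-identical gene copies, and whether its reads were split between them was not tested.

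Genes of B-cell, myeloma and RNA-regulation lists had 3' UTR variants at a share near that of all protein-coding genes. Of 225 listed gene symbols, 7 (3.11%) had a 3' UTR variant, against 622 of 21896 protein-coding genes (2.84%). A few genes were listed under an alternative symbol as well (Fam46c and Tent5c, Fasl and Faslg, Ksrp and Khsrp). The list sizes count both symbols. By list, members with a variant were 1 of 44 for plasma and B cell identity, 2 of 30 for genes hit off target by AID, the enzyme that mutates antibody genes, 0 of 40 for myeloma driver genes, 1 of 40 for NF-kB, IL6, JAK and STAT signalling, 2 of 50 for lymphocyte receptors, adhesion and chemokines, and 1 of 40 for regulators that act on 3' UTRs. Any variant at all, of whatever annotation, was listed for 89 of the 225 symbols (39.6%) and for 6129 of the 21896 protein-coding genes (27.99%). The shares were not tested against each other.

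The genes of the co-stimulatory ligands Cd80 and Cd86 had the listed variants with the most carriers, all on chromosome 16. Antigen-presenting B cells display these ligands to CD28, a co-stimulatory receptor on T cells. In Cd80 a T>C change at the first base past the stop codon and a C>T change 85 bases past it were in the same 10 tumours (3, 7, 8, 10, 12, 13, 15, 16, 17 and 19). The read share of the T>C change ran from 40.4% to 59% with a median of 48.5%, and that of the C>T change from 35.7% to 59.5% with a median of 47.0%. A T>C change at 212 bases was in 5 tumours, of which 3 also carried the other changes. In Cd86 a T>C change 15 bases past the stop codon was in 10 tumours at 33.3% to 47.1%, median 42.5%. None of the 10 reached 50%.

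Stat3, the transcription factor that IL6 activates through its receptor, carried adjacent changes, T>C at 29 and C>A at 28 bases past the stop codon. Both were in tumours 1, 2, 7 and 8, with read shares of 58.6%, 51.0%, 48% and 53.1% that were the same for both. Both belong to a group of 11 variants in these 4 tumours on chromosome 11 between 97048392 and 100888677.

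The other listed genes had private variants. The growth-restraining gene Btg1 had a 1-base deletion at 58.3% in tumour 11. The linker histone gene Hist1h1c had a T>C change at 36.2% in tumour 43. Ikzf1, which encodes the lymphoid transcription factor Ikaros, had a T>G change at 28.6% in tumour 3. Qk, an RNA-binding protein gene, had a 1-base insertion at 80.8% in tumour 5 and a 1-base deletion at the same position at 45.5% in tumour 2, both with an intronic written change. No 3' UTR variant was listed for the myeloma list, Myc and Il6 included. The coverage of these 3' UTRs is unknown.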

How the data were processed

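Mouse tumour exomes were captured with a 50 Mb Agilent exon kit, per the labels' protocols. The submitters' processing notes name GATK and mm10. Its version, the aligner, the filters and the annotation tool were not given in the sources used here. Deposited by the authors was 1 annotated table. Its tumour cells hold a percent of reads with the alternate allele, read as such from the values, and the deposited count column gives the tumours with a call. Depth per sample and site is unknown, so no interval was set on a single percent, and a missing call is not evidence of the reference base.

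Of 25823 rows, 199 with several alternate alleles were left out, 12 of them in 3' UTRs. Shares and medians were taken within each tumour. Differences were tested by two-sided sign-flip permutation over tumours with at least 3 variants of both kinds. It used 100000 resamples, or all sign patterns with 16 or fewer tumours. Benjamini-Hochberg adjustment was over the 11 differences of a setting, without the indel share against coding variants. Each alternative setting or comparison was adjusted by itself, with no adjustment across them. The test was tried on simulated data only for shares of private SNVs drawn at a common rate in all tumours. Read shares and the private share were not simulated. Python 3.11.15, numpy 2.4.6, pandas 2.3.3 and scipy 1.17.1 were used.

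Named are the 20 genes with the most variants, genes of the 6 lists, variants in every tumour, the 10 recurrent indels with the most carriers, the 10 private variants with the highest read share and 10 genes with private variants in several tumours. One gene that this rule names is not reported here. Members and lists were chosen with earlier results of these data known. No genome sequence was used here.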

Additional observations from a re-analysis of the deposited data

How the results depend on the processing

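Every difference was taken within a tumour. No paired analysis between groups was possible because the kidneys were not analysed here and the labels give no shared replicate numbers. The private share of 3' UTR calls stayed below that of other calls under all 11 alternatives, with differences from -1.996 (private meaning at most 2 tumours) to -0.856 percentage points (minimum read share of 20%), and failed the threshold only with titles from 1601 up (-1.62 points, adjusted p = 0.0938). The read share of private against shared SNVs stayed negative under all 10, and failed only with a minimum read share of 20% (-5.27 points), a minimum that removes the lowest values by construction. With titles from 1601 up there were 353 distinct variants and 70 genes with several. Those genes numbered 114 with SNVs only and 48 with private variants only, both fewer by construction.

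Differences that did not pass in the report changed sign as follows, in percentage points. With a minimum read share of 10%, transitions gave -0.128, C>T -4.37 and T>C 4.24. With 20%, the indel share gave 2.58, C>T -3.66 and T>C 4.50. With titles from 1601 up, the read share gave -1.19 and T>G -0.638. With titles below 1601, the indel share gave 2.82, C>T -0.342 and T>C 3.74. Against 5' UTR variants, the indel share passed at 15.1 (adjusted p = 0.0142), and transitions gave -1.21, C>T -7.12 and T>C 5.91. Against missense and synonymous variants, transitions gave -3.67, C>T -6.49 and T>C 2.81, and the read share passed at 7.96. Against all variants outside 3' UTRs, the indel share gave 4.19 and T>C 0.916. With at least 5 variants per tumour, C>T gave -0.393 and T>C 2.25. Without rows lacking a written 3' UTR position, an alternative chosen after seeing the data, T>C gave 0.339. The cause was not tested. Depth is unknown, which limits every call at a low read share.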
